A study of Rattus norvegicus with 6 samples.

Results

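The mitochondrial chromosome genes are the 37 genes that the deposited gene table of rat bone marrow mesenchymal stem cells (BMSCs) places on chromosome MT, of 33508 genes in all. Membership was set by that chromosome name alone, although the set was chosen with earlier results of these data known. The 37 genes comprise 13 protein genes, 2 ribosomal RNA genes and 22 transfer RNA genes. By the table, 28 lie on the plus strand and 9 on the minus strand, and the last annotated base is 15415. RNA-seq counts were compared between 3 libraries of BMSCs-OE-FNDC5, which carry a lentivirus overexpressing FNDC5, and 3 libraries of BMSCs-OE-NC, which carry the vector control (FNDC5 and NC libraries below). All 6 libraries came from cells kept for 24 h in medium without glucose and serum, in 1% O2 with 5% CO2 and 94% N2 (hypoxia/serum deprivation, H/SD). There was no library without H/SD, so each value describes FNDC5 against its control under H/SD. By the study's methods the cells were from rats aged 2 months, had been passaged 3 times and were transduced over 72 h at a multiplicity of infection of 10. The sample titles call the libraries of a group biological replicates. The sources used here do not name the promoter of the vector or say whether separate rats or transductions stand behind a group's libraries. The p-values thus measure the spread between these libraries, which may still be technical, since the repeated unit is not stated.

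Mitochondrial DNA is a small circular genome held in many copies inside mitochondria. Both of its strands are transcribed as long precursors by a polymerase encoded in the nucleus, and enzymes then cut out the transfer RNAs, which lie between most of the other genes, to free the ribosomal RNAs and mRNAs. The mRNAs encode core subunits of complexes I, III, IV and V of oxidative phosphorylation, and the remaining subunits, all of complex II and every protein of mitochondrial transcription and translation come from nuclear genes.

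Total counts were 17430287 to 17965722 in the NC libraries and 16640635 to 17229490 in the FNDC5 libraries. Fndc5, which encodes the precursor of irisin, had 17 to 25 counts in the NC libraries and 64195 to 65589 in the FNDC5 libraries. Of 11 mesenchymal stromal markers, 10 could be tested, 3 of which rose and 7 of which fell, with summed levels of 6937 to 6994 CPM (counts scaled to a common library size) in the NC libraries and 4585 to 4638 CPM in the FNDC5 libraries. Of all genes tested, 36.9% were higher and 38.8% lower in that fit. By library size alone 1 marker rose and 8 fell, beside 22.0% and 55.4% of all genes. With the trend of counts with gene length removed 4 rose and 6 fell, beside 38.3% and 33.7%. Of 11 macrophage and monocyte markers, 2 could be tested and both rose, with summed levels of 98.1 to 103 CPM and then 198 to 206 CPM, while 6 were at 0 in every library, Ptprc among them. Only 1 of these 2 rose by library size alone or with the length trend removed. Summed levels were also higher for the endothelial list, going from 51.8 to 55.2 CPM in the NC libraries to 90.5 to 94.0 CPM in the FNDC5 libraries, with Cdh5 and Kdr at 0. Only 1 gene of that list could be tested. The erythroid list stood at 1.06 to 1.74 CPM and 2.59 to 3.44 CPM with Hba1, Hbb and Alas2 at 0, and the list of retina and neuron genes stood at 15.8 to 20.0 CPM and 42.0 to 44.9 CPM with Crx, Rcvrn, Pde6b, Opn1sw and Snap25 at 0. Only 1 erythroid gene and 2 retina and neuron genes could be tested, so these sums do not describe whole lists. The part of these lists in the results below was not tested.

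Mitochondrial transcripts made up a smaller share of the counts in the FNDC5 libraries. Counts on chromosome MT numbered 290480, 271595 and 279762 in the 3 NC libraries and 210781, 202720 and 220434 in the 3 FNDC5 libraries. As a share of all counts this was 1.62%, 1.54% and 1.61% against 1.23%, 1.22% and 1.28%, so the groups did not overlap. The mean was 1.59% ± 0.0403 (SD, n = 3) in the NC libraries and 1.24% ± 0.0331 (SD, n = 3) in the FNDC5 libraries, a difference of -0.347 percentage points. A two-sided exact permutation test over libraries gave p = 0.1, which is the smallest value that 3 libraries against 3 allow. Counting error is small at this depth, with a 95% Wilson interval of 1.61% to 1.62% for the first NC library, which covers counting error only. These shares are read against the total counts of a library. By library size alone, genes in general were also lower, with a median of -0.41 on the log2 scale over those tested. Scaling to the mitochondrial total in place of TMM, the scaling used for the tests below, moved the median by only -0.015. Read against TMM, the mitochondrial total thus barely differed between the groups. In bulk RNA, fewer cells of a type and less mitochondrial RNA per cell cannot be told apart.

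The mRNAs accounted for the lower share, and ribosomal and transfer RNAs both had higher shares. Protein genes took 1.57% ± 0.0391 (SD, n = 3) of all counts in the NC libraries and 1.21% ± 0.0313 (SD, n = 3) in the FNDC5 libraries. Ribosomal RNAs took 0.0161% ± 0.00142 (SD, n = 3) and 0.0287% ± 0.00153 (SD, n = 3). Transfer RNAs took 0.00193% ± 0.000131 (SD, n = 3) and 0.00414% ± 0.000406 (SD, n = 3). None of the 3 shares overlapped between the groups, and each gave p = 0.1 in the exact permutation test. Within the mitochondrial counts, ribosomal RNAs were 1.09%, 0.967% and 0.974% in the NC libraries and 2.26%, 2.30% and 2.38% in the FNDC5 libraries. The library kit named in the labels is of a kind that in general captures RNA by its poly(A) tail, so these shares are of captured RNA, and ribosomal and transfer RNAs are not measured at their full level.

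**Figure D1:**
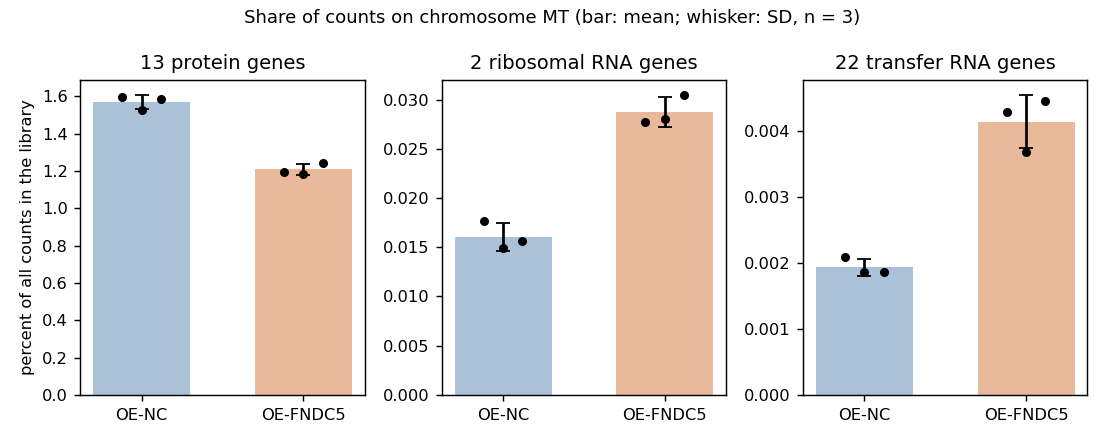
Percent of all counts of a library that fell on the 13 protein genes, 2 ribosomal RNA genes and 22 transfer RNA genes of chromosome MT (y axes, each from 0), for BMSCs-OE-NC (OE-NC) and BMSCs-OE-FNDC5 (OE-FNDC5). Points are libraries, bars are means and whiskers are SD (n = 3): the protein gene share is lower in all 3 FNDC5 libraries, at a mean of 1.21% against 1.57%, and the other shares are higher in all 3.

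Of the 37 members, those that could be tested were called in both directions. A filter on low counts left 18 members, namely the 13 protein genes, both ribosomal RNAs and 3 transfer RNAs, and edgeR's quasi-likelihood test was fitted on all 12104 genes that passed it, on libraries scaled by edgeR's trimmed mean of M values, TMM. At an adjusted p under 0.05 (Benjamini-Hochberg over all genes tested), 8 of the 18 rose, 7 fell and 3 did not pass, where 36.9% of all genes tested were higher and 38.8% lower. The shares of members called in each direction are thus near those of all genes. With an absolute log2 fold change over 1 as well, 6 members were higher and 1 was lower, against 9.84% and 17.5% of all genes. TMM-scaled levels, in CPM, did not overlap between the groups for 16 of the 18 members, as they did not for 78.3% of all genes. The median log2 fold change, always BMSCs-OE-FNDC5 over BMSCs-OE-NC, was 0.08 over the 18 members and -0.04 over all genes tested.

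These calls depend on the scaling. TMM factors were 1.13 to 1.14 in the NC libraries and 0.877 to 0.882 in the FNDC5 libraries, and scaling by library size alone moved the median of all genes by -0.37 on the log2 scale. With library size alone, 6 members rose and 11 fell, where 22.0% of all genes were higher and 55.4% lower. A fit in which each library's trend of counts with gene length was removed also gave 6 that rose and 11 that fell, where 38.3% of all genes were higher and 33.7% lower. Both ribosomal RNAs, the 3 transfer RNAs and ND3 rose under all 3 of these fits, and ND1, COX2, ND4L, ND4, ND5, ND6 and CYTB fell under all 3. When the scaling was set to the total of chromosome MT counts, so that each gene is read against the other mitochondrial RNAs, again 8 members rose, 7 fell and 3 did not pass, where 35.6% of all genes were higher and 38.8% lower. The median over the 18 members was -0.29 by library size alone, beside -0.41 over all genes, and -0.36 with the length trend removed, beside 0.03.

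**Figure D2:**
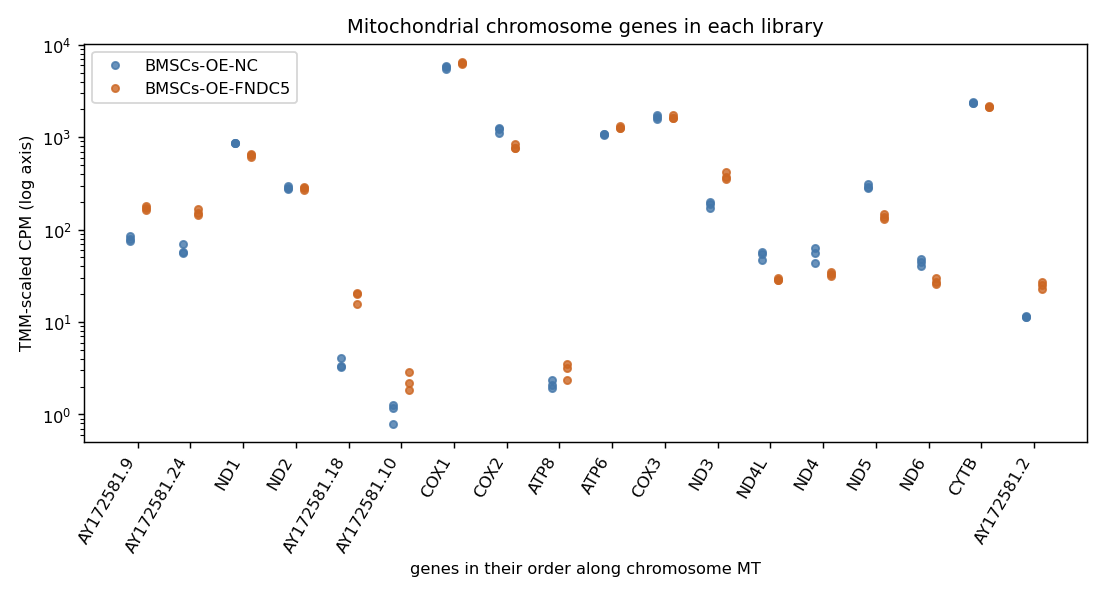
TMM-scaled CPM (y axis, log scale) of the 18 tested chromosome MT genes in each of the 6 libraries, with genes in the order of their start positions along the x axis. COX1 is highest, at a mean of 5714 CPM in BMSCs-OE-NC and 6358 CPM in BMSCs-OE-FNDC5, and the groups overlap for ND2 and COX3.

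Both ribosomal RNAs, which form the core of the mitochondrial ribosome, rose. The shorter, AY172581.9 (chromosome MT, 68 to 1025, plus strand, 958 bases), had 1751, 1510 and 1581 counts in the NC libraries and 2478, 2537 and 2737 counts in the FNDC5 libraries. All FNDC5 libraries were higher although their totals were lower. AY172581.9 went from 80.3 ± 5.40 to 173 ± 8.70 CPM (SD, n = 3), and its log2 fold change was 1.10 (SE 0.05, adjusted p = 6.3e-09 from edgeR). The longer, AY172581.24 (1094 to 2664, plus strand, 1571 bases), had 1422, 1117 and 1144 counts and then 2281, 2126 and 2517 counts. Its level went from 61.1 ± 7.65 to 154 ± 11.2 CPM (SD, n = 3), and its log2 fold change was 1.34 (SE 0.08, adjusted p = 4.0e-08 from edgeR). By library size alone AY172581.9 was at 0.73 and AY172581.24 at 0.97, both under the fold threshold. With the length trend removed they were at 0.68 and 1.13. The ribosomal RNAs lie side by side with a single transfer RNA gene between them, and the ratio of counts of AY172581.24 to AY172581.9 within a library was 0.724 to 0.812 in the NC libraries and 0.838 to 0.921 in the FNDC5 libraries.

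The 3 tested transfer RNA genes rose, and all 3 are annotated on the minus strand. AY172581.18 (5081 to 5152, 72 bases), between ND2 and COX1, had 83, 65 and 67 counts in the NC libraries and 314, 233 and 304 counts in the FNDC5 libraries. Its log2 fold change of 2.41 (SE 0.15, adjusted p = 6.2e-08 from edgeR) was the largest of the 18 members. The groups did not overlap for AY172581.10 (5185 to 5252, 68 bases) either, which had 26, 16 and 23 counts and then 28, 32 and 44 counts, with a log2 fold change of 1.10 (SE 0.29, adjusted p = 0.0054 from edgeR). The highest counts of a transfer RNA gene were those of AY172581.2 (15348 to 15415, 68 bases), downstream of CYTB. It had 239, 226 and 225 counts in the NC libraries and 381, 331 and 411 counts in the FNDC5 libraries, a log2 fold change of 1.13 (SE 0.10, adjusted p = 9.0e-07 from edgeR). By library size alone AY172581.10 was at 0.73 and AY172581.2 at 0.76, both under the fold threshold, and AY172581.18 was at 2.04. AY172581.18 and AY172581.10 are separated by no other annotated gene but did not keep their ratio, which was 2.91 to 4.06 in the NC libraries and 6.91 to 11.2 in the FNDC5 libraries.

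The other 19 transfer RNA genes stayed below the filter. Of these, 12 had at least 1 count, with at most 12 in a library, and 7 were at 0 in all 6 libraries, which allows up to 3 counts a library, or 0.147 to 0.204 CPM. The 8 transfer RNA genes on the minus strand held 98.9% of all transfer RNA counts, with 318 to 363 counts a library in the NC libraries and 610 to 762 in the FNDC5 libraries, and the 14 on the plus strand had 1 to 11 and 2 to 5 counts a library. The strand setting of the counting is not given in the sources used here, so reads of these short genes cannot be told apart from reads of the opposite strand at the same place.

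Complex I, which takes electrons from NADH and pumps protons, is encoded in part by 7 mitochondrial genes. Of these 7, 1 rose, 5 fell and the remaining 1 did not pass under TMM, and 1 rose and 6 fell both by library size alone and with the length trend removed. Of all genes, 36.9% were higher and 38.8% lower under TMM, and 22.0% and 55.4% by library size alone. With the length trend removed these shares were 38.3% and 33.7%. ND1 (2740 to 3694, plus strand), beside the site where ubiquinone binds, had 17704, 17398 and 17136 counts in the NC libraries and 9765, 9041 and 9856 counts in the FNDC5 libraries. The NC libraries lay close together at 867 ± 2.11 CPM (SD, n = 3) and the FNDC5 libraries at 638 ± 19.3 CPM (SD, n = 3), giving a log2 fold change of -0.44 (SE 0.03, adjusted p = 3.9e-08 from edgeR). ND2 (3904 to 4942, plus strand), a membrane subunit of the proton pump, had 286 ± 12.8 and 281 ± 9.68 CPM (SD, n = 3), and its groups overlapped. Its log2 fold change was -0.03 with a 95% interval of -0.11 to 0.06 under TMM scaling. ND2 passed as lower by library size alone at -0.40, with the length trend removed at -0.42 and with upper-quartile scaling at -0.13.

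ND3 and ND4L are neighbours that moved apart. ND3 (9451 to 9798, plus strand), a small membrane subunit, had 4048, 3461 and 3736 counts in the NC libraries and 5581, 5196 and 6376 counts in the FNDC5 libraries. It was the only mitochondrial mRNA that rose under TMM, library size alone and the length fit, from 187 ± 13.3 to 382 ± 35.8 CPM (SD, n = 3), and its log2 fold change was 1.03 (SE 0.07, adjusted p = 7.1e-08 from edgeR). The log2 fold change of ND3 was 0.66 by library size alone, 0.46 with the length trend removed and 0.93 with upper-quartile scaling, all under the fold threshold. Under TMM it lies close to that threshold, and without NC replicate 2, or without FNDC5 replicate 3, ND3 and AY172581.10 fell under it, so that 4 in place of 6 members were higher past both thresholds. ND4L (9870 to 10166, plus strand), also a small membrane subunit, had 1105, 935 and 1127 counts and then 431, 445 and 433 counts, a log2 fold change of -0.85 (SE 0.07, adjusted p = 1.2e-06 from edgeR). The ratio of ND3 to ND4L counts within a library was 3.66, 3.70 and 3.31 in the NC libraries and 12.9, 11.7 and 14.7 in the FNDC5 libraries. Against COX3, its neighbour on the other side, ND3 had ratios of 0.119, 0.108 and 0.110 and then 0.227, 0.221 and 0.241. These ratios do not depend on how libraries are scaled, and neither pair overlapped between the groups.

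ND4 and ND5, large membrane subunits of the proton pump, fell. ND4 (10160 to 11537, plus strand) had 1282, 1115 and 866 counts in the NC libraries and 482, 483 and 525 counts in the FNDC5 libraries, a log2 fold change of -0.70 (SE 0.11, adjusted p = 1.3e-04 from edgeR). A nuclear locus described as resembling this subunit had 60, 201 and 711 counts in the NC libraries and 26, 24 and 18 in the FNDC5 libraries, and whether it shares reads with ND4 was not tested. ND4 and ND4L share 7 bases, and their ratio overlapped between the groups, at 0.768 to 1.19 in the NC libraries and 1.09 to 1.21 in the FNDC5 libraries. ND5 (11736 to 13565, plus strand), the longest of the 37 genes at 1830 bases, had 5733, 6293 and 5695 counts and then 1983, 2021 and 2225 counts. Under TMM it was the single member past both thresholds in the lower direction, from 294 ± 17.0 to 139 ± 8.15 CPM (SD, n = 3), and its log2 fold change was -1.08 (SE 0.05, adjusted p = 4.8e-09 from edgeR). With library size alone ND4L, ND4 and ND6 passed the fold threshold as well. With the length trend removed ND4L, ND6 and COX2 passed it beside ND5.

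ND6 (13543 to 14061), a membrane subunit, is the only protein gene on the minus strand. It had 921, 955 and 808 counts in the NC libraries and 390, 394 and 453 counts in the FNDC5 libraries, a log2 fold change of -0.69 (SE 0.08, adjusted p = 7.5e-06 from edgeR). ND6 shares 23 bases with ND5 on the opposite strand, and without a stated strand setting their reads there cannot be told apart. Read against the other 12 mRNAs, ND6 went from a log2 ratio of -8.28 ± 0.14 (SD, n = 3) to -8.96 ± 0.08 (SD, n = 3), a difference of -0.69 with no overlap between the groups and p = 0.1 in the exact permutation test.

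CYTB (14136 to 15278, plus strand), the mitochondrial subunit of complex III, had 48134, 47717 and 47475 counts in the NC libraries and 31762, 30800 and 32577 counts in the FNDC5 libraries. It fell with narrow spread, from 2379 ± 16.8 to 2118 ± 33.1 CPM (SD, n = 3), and its log2 fold change was -0.17 (SE 0.02, adjusted p = 8.3e-06 from edgeR). By library size alone it was -0.54, and with the length trend removed -0.52. ND5 and CYTB lie on either side of ND6, and the ratio of ND5 to CYTB counts went from 0.119, 0.132 and 0.120 to 0.0624, 0.0656 and 0.0683.

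Complex IV, cytochrome c oxidase, passes electrons to oxygen, and its 3 mitochondrial genes went 3 ways under TMM. By library size alone 0 rose and 3 fell, beside 22.0% and 55.4% of all genes. With the length trend removed 0 rose and 3 fell as well, beside 38.3% and 33.7%. COX1 (5323 to 6867, plus strand), the catalytic subunit that holds the oxygen-binding site, had 120944, 109677 and 113780 counts in the NC libraries and 95321, 91903 and 98351 counts in the FNDC5 libraries. Raw counts were lower in every FNDC5 library, while TMM-scaled levels were higher, at 5714 ± 239 and 6358 ± 134 CPM (SD, n = 3). COX1 thus rose under TMM with a log2 fold change of 0.15 (SE 0.03, adjusted p = 3.3e-04 from edgeR), was lower by library size alone at -0.22 and with the length trend removed at -0.06, and did not pass with upper-quartile scaling at 0.05. Within the mitochondrial counts COX1 was 40.4% to 41.6% in the NC libraries and 44.6% to 45.3% in the FNDC5 libraries.

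COX2 (7006 to 7689, plus strand), the subunit that accepts electrons from cytochrome c, fell. It had 24884, 22382 and 24722 counts in the NC libraries and 11449, 11344 and 12812 counts in the FNDC5 libraries, a log2 fold change of -0.59 (SE 0.05, adjusted p = 5.8e-07 from edgeR). By library size alone it was -0.96, and with the length trend removed -1.13, past the fold threshold. The ratio of COX2 to COX1 counts went from 0.206, 0.204 and 0.217 to 0.120, 0.123 and 0.130. COX3 (8599 to 9382, plus strand), the third core subunit, stood at 1661 ± 66.0 and 1659 ± 81.8 CPM (SD, n = 3), with overlapping groups and a 95% interval of the log2 fold change of -0.08 to 0.08. With library size alone COX3 was at -0.37 and passed the test in the lower direction. It also did so with the length trend removed at -0.49 and with upper-quartile scaling at -0.11.

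ATP6 and ATP8 encode membrane subunits of complex V, the ATP synthase. ATP6 (7919 to 8599, plus strand), part of the proton channel, had 22320, 21218 and 21283 counts in the NC libraries and 19260, 18296 and 19896 counts in the FNDC5 libraries. It rose under TMM, from 1076 ± 19.6 to 1279 ± 35.5 CPM (SD, n = 3) with a log2 fold change of 0.25 (SE 0.03, adjusted p = 4.2e-06 from edgeR), and was lower by library size alone at -0.12 and with the length trend removed at -0.29. ATP8 (7758 to 7961, plus strand) had only 42, 47 and 38 counts and then 48, 52 and 36 counts, and did not pass at a log2 fold change of 0.52 (SE 0.22, adjusted p = 0.0505 from edgeR). Without FNDC5 replicate 3, ATP8 passed at 0.67 (adjusted p = 0.018 from edgeR), as it did at 0.55 with the size factors of DESeq2 in edgeR and at 0.50 and 0.53 on the log2(FPKM + 1) and log2(FPKM + 0.1) scales with limma. ATP8 shares 43 bases with ATP6, so its low count may depend on how reads over both genes were assigned, which was not tested.

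**Figure D3:**
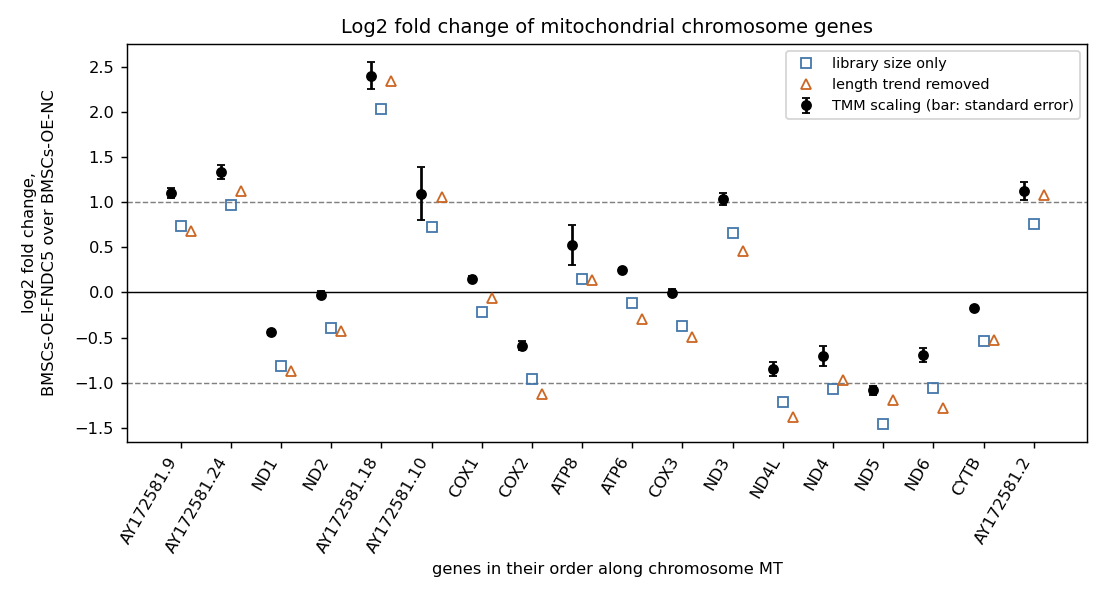
Log2 fold change of BMSCs-OE-FNDC5 over BMSCs-OE-NC (y axis) for the 18 tested genes in their order along chromosome MT, under TMM scaling (black, with standard error), library size alone (squares) and with the length trend removed (triangles). Dashed lines mark a log2 fold change of 1 in either direction. COX1 and ATP6 lie above 0 under TMM only, AY172581.18 is highest at 2.41 and ND5 lowest at -1.08 under TMM.

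Levels per length are compared by FPKM, the deposited value that divides counts by gene length. In BMSCs-OE-NC the mRNAs and ribosomal RNAs ran from COX1 at 3638 FPKM through COX3 at 2084, CYTB at 2047, COX2 at 1718, ATP6 at 1554, ND1 at 893 and ND3 at 527 to ND2 at 271 FPKM. Below them were ND4L at 174 FPKM, ND5 at 158, ND6 at 84.4, AY172581.9 at 82.5, ND4 at 38.6, AY172581.24 at 38.2 and ATP8 at 10.2 FPKM. Ranges of the 3 libraries overlapped between neighbours for COX3 and CYTB, ND4L and ND5, ND6 and AY172581.9, and ND4 and AY172581.24. In BMSCs-OE-FNDC5 the order began with COX1 at 4121 FPKM, COX3 at 2120, ATP6 at 1881, CYTB at 1856, COX2 at 1161 and ND3 at 1098 FPKM, where ATP6 overlapped CYTB and COX2 overlapped ND3. ND1 at 669 FPKM and ND2 at 271 FPKM followed, and then AY172581.9 at 180 FPKM, above ND4L at 98.3, AY172581.24 at 98.2, ND5 at 75.9, ND6 at 53.1, ND4 at 24.1 and ATP8 at 14.9 FPKM, where ND4L overlapped AY172581.24. ND3 thus stood below ND1 in every NC library and above it in every FNDC5 library. COX1, CYTB, COX3, COX2 and ATP6 together held 87.1% ± 0.301 (SD, n = 3) of the mRNA counts in the NC libraries and 88.9% ± 0.192 (SD, n = 3) in the FNDC5 libraries.

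Ratios within a library gave the same order of the classes of RNA without any scaling between libraries. The log2 ratio of ribosomal RNA to mRNA counts was -6.50, -6.68 and -6.67 in the NC libraries and -5.43, -5.40 and -5.35 in the FNDC5 libraries, a difference of 1.22. For transfer RNA to mRNA it was -9.58, -9.68 and -9.74 and then -8.13, -8.33 and -8.13, a difference of 1.47. In all, 7 such ratios were compared, and for each of them the groups did not overlap and the exact permutation test gave p = 0.1, also after Benjamini-Hochberg adjustment over the 7.

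The other 4 ratios set the mitochondrial against the nuclear subunit genes of 1 complex, and all were lower in the FNDC5 libraries. For complex I the log2 ratio of summed counts of 7 mitochondrial to 36 nuclear genes went from -0.84 ± 0.01 to -1.91 ± 0.05 (SD, n = 3). For complex III, CYTB against 9 nuclear genes went from 0.81 ± 0.02 to -0.22 ± 0.03 (SD, n = 3), so that CYTB counts were above the nuclear sum in the NC libraries and below it in the FNDC5 libraries. Complex IV went from 1.92 ± 0.06 to 0.97 ± 0.04 (SD, n = 3) and complex V from -2.08 ± 0.01 to -2.65 ± 0.03 (SD, n = 3). The differences were -1.07, -1.03, -0.95 and -0.57 on the log2 scale for complexes I, III, IV and V.

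**Figure D4:**
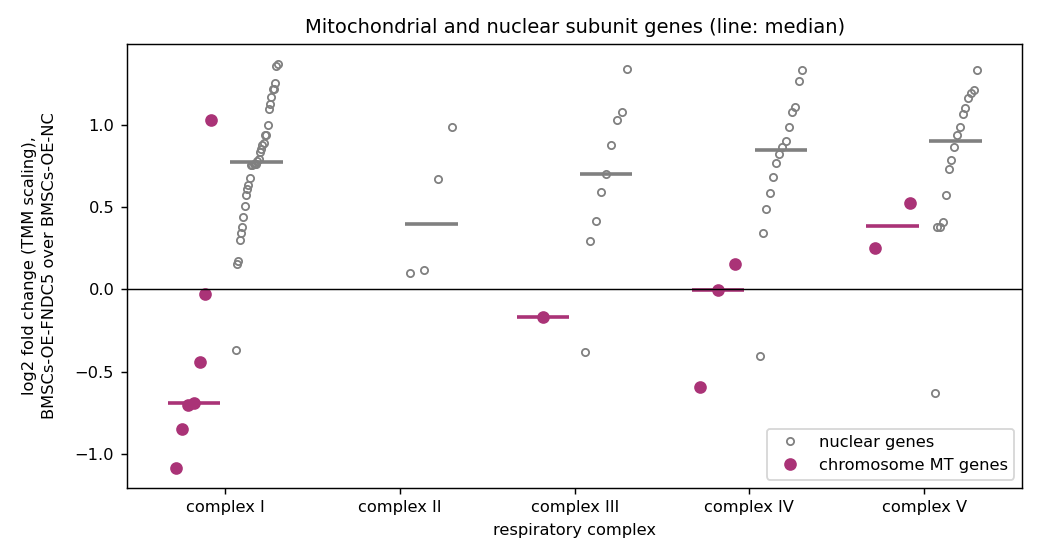
Log2 fold change under TMM scaling (y axis) of the mitochondrial (filled) and nuclear (open) genes of each respiratory complex, with a line at each median; points within a set are ordered by value. Nuclear medians are 0.77, 0.40, 0.71, 0.85 and 0.90 for complexes I to V; of the mitochondrial genes, COX1 and ATP6 are above 0 here but lower with library size alone.

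The nuclear side of these ratios rose. The lists of nuclear genes below were made from general knowledge of mitochondria, with earlier results of these data known. The counts of each complex stand beside 36.9% of all genes that were higher and 38.8% that were lower under TMM. Of 34 tested nuclear genes of complex I, 33 rose and 1, Ndufs1, fell at a log2 fold change of -0.37. Their median was 0.77 against -0.04 over all genes. Ndufa7 rose by 1.36 and Ndufb8 by 1.10, both accessory subunits. In complex II, which has no mitochondrial gene, 3 of 4 rose with a median of 0.40, led by the iron-sulfur subunit Sdhb at 0.99 and the membrane anchor Sdhc at 0.67, while Sdhd, the other anchor, did not pass at 0.10 under TMM and was lower by library size alone at -0.27 and with the length trend removed at -0.23. In complex III 8 of 9 rose with a median of 0.71, among them Uqcrc1 at 1.03 and Uqcrq at 1.08, and Uqcrc2 fell at -0.38. Complex IV had 13 of 14 that rose and a median of 0.85, with Cox4i1 at 1.11 and Cox6a1 at 1.34, and Cox4i2 did not pass at -0.41, but was lower by library size alone at -0.78 and with the length trend removed at -0.80. In complex V 15 of 16 rose with a median of 0.90, among them Atp5f1d at 1.20 and Atp5f1b, a catalytic subunit, at 0.73, and Atp5pb did not pass at -0.63 under TMM, but passed as lower by library size alone. Genes in these counts of 5 or fewer, here and below, are named after their values were seen. With library size alone the medians for complexes I to V were 0.40, 0.03, 0.34, 0.48 and 0.53, beside -0.41 over all genes, and with the length trend removed they were 0.35, 0.25, 0.22, 0.28 and 0.45, beside 0.03 over all genes. By library size alone 27, 2, 6, 9 and 12 genes of complexes I to V rose and 3, 2, 1, 1 and 1 fell. Of all genes, 22.0% were then higher and 55.4% lower. With the length trend removed 26, 3, 5, 8 and 12 rose and 2, 1, 3, 2 and 0 fell, beside 38.3% and 33.7% of all genes. Ndufb3, Uqcrb, Uqcrh and Cox5b rose under TMM but were lower with the length trend removed, at -0.37, -0.30, -0.17 and -0.25. These nuclear genes are short, with a median length of 708 bases in complex I and 522 bases in complex IV.

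The lists for making and translating mitochondrial RNA are given beside the 36.9% of all genes that were higher and the 38.8% that were lower under TMM. Of 7 tested genes of mitochondrial transcription, 1 rose, 3 fell and 3 did not pass, with a median of -0.14. By library size alone 0 rose and 6 fell, beside 22.0% and 55.4% of all genes. With the length trend removed 1 rose and 4 fell, beside 38.3% and 33.7%. Polrmt, the RNA polymerase of mitochondria, was at 28.0 ± 1.38 and 31.6 ± 2.19 CPM (SD, n = 3), with overlapping groups, and passed narrowly at a log2 fold change of 0.17 (adjusted p = 0.048 from edgeR) under TMM but was lower at -0.20 by library size alone and higher at 0.56 with the length trend removed. Tfam, which packages mitochondrial DNA and starts its transcription, was at 39.9 ± 2.69 and 37.4 ± 1.57 CPM (SD, n = 3) and did not pass under TMM (-0.09, adjusted p = 0.21 from edgeR), whereas it was lower by library size alone at -0.46 and with the length trend removed at -0.32. Tfb2m, the initiation factor that opens the promoter, fell with 174, 179 and 119 counts against 53, 49 and 66, a log2 fold change of -1.06 (SE 0.19, adjusted p = 3.9e-04 from edgeR). Mterf3 and Mterf1, of a family that binds mitochondrial nucleic acids, fell at -0.77 and -0.87.

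Among 27 genes of mitochondrial RNA processing and stability, 12 rose, 9 fell and 6 did not pass, beside 36.9% higher and 38.8% lower over all genes. Lrpprc, which stabilises mitochondrial mRNAs in a complex with Slirp, had 978, 977 and 926 counts in the NC libraries and 305, 320 and 303 counts in the FNDC5 libraries, a log2 fold change of -1.21 (SE 0.06, adjusted p = 7.4e-09 from edgeR). Slirp moved the other way, from 16.0 ± 1.73 to 27.9 ± 2.88 CPM (SD, n = 3), and its log2 fold change was 0.80 (SE 0.11, adjusted p = 3.4e-05 from edgeR). Fastk, of a family that binds mitochondrial RNA, rose at 0.82, and Hsd17b10, a subunit of the enzyme that cuts transfer RNA precursors at their 5′ end, rose at 0.96. Their relatives in this list, named after their values were seen, did not all rise. Fastkd1, Fastkd2 and Fastkd3 fell at -0.74, -1.46 and -0.76 and Trmt10c at -0.81, while Tbrg4 rose at 0.60. Of these, Fastkd1 did not pass with the length trend removed. Of 72 tested genes of mitochondrial ribosomal proteins, 57 rose, 12 did not pass and 3 (Mrps2, Mrps22 and Mrps31) fell, of which Mrps2 did not pass with the length trend removed, with a median of 0.75 and with Mrpl12 at 0.99 and Mrpl52 at 0.85. In 16 tested mitochondrial tRNA synthetases 7 rose, Fars2 at 0.91 and Tars2 at 0.53 among them, 3 fell (Yars2, Iars2 and Hars2) and 6 did not pass, and Iars2 and Hars2 did not pass with the length trend removed.

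The next lists are again given beside 36.9% of all genes that were higher and 38.8% that were lower under TMM. Of 14 genes of mitochondrial DNA replication and the nucleoid, 7 rose, among them the polymerase subunit Polg2 at 0.95 and the protease Lonp1 at 0.58, 6 did not pass and Rrm2b, a subunit of ribonucleotide reductase, fell at -1.03. The regulators of mitochondrial gene programmes in the nucleus had 4 of 6 that fell under TMM, where 38.8% of all genes were lower, and 2 that rose and 3 that fell with the length trend removed. Ppargc1a, which encodes the coactivator PGC-1alpha, had 19, 44 and 50 counts in the NC libraries and 6, 4 and 4 counts in the FNDC5 libraries, a log2 fold change of -2.57 (SE 0.48, adjusted p = 5.0e-04 from edgeR). The transcription factors Gabpa and Yy1 fell at -1.64 and -0.88 and the coactivator Pprc1 at -0.47, which was at 0.15 and did not pass with the length trend removed, Nrf1 did not pass at -0.06 under TMM, was lower by library size alone at -0.43 and higher with the length trend removed at 0.28, and Esrra, a nuclear receptor, rose at 1.02. Respiratory complex assembly factors had 18 of 31 that rose, Uqcc2 at 1.89 and Cox14 at 1.04 among them, 8 that did not pass and 5 that fell (Ndufaf4, Atpaf1, Cox11, Ndufaf1 and Tmem70). Of 18 other matrix and membrane proteins 13 rose, with Phb at 0.96 and the ADP/ATP carrier Slc25a4 at 0.65, and 4 fell, of which Hspa9 at -1.05 and Hspd1 at -0.84 are chaperones and Immt at -0.77 and Vdac3 at -0.18 are membrane proteins.

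Over the 13 nuclear lists, with each gene counted once, 188 of 267 tested genes rose, 34 fell and 45 did not pass under TMM, with a median log2 fold change of 0.54. Of all genes tested, 36.9% were higher and 38.8% lower under TMM. By library size alone 129 rose and 71 fell. That scaling, under which 22.0% of all genes were higher and 55.4% lower, gave 2 that rose and 5 that fell for replication and the nucleoid, 6 and 12 for RNA processing, 3 and 7 for tRNA synthetases, 10 and 9 for assembly, 7 and 7 for matrix and membrane proteins and 44 and 13 for ribosomal proteins. It gave 0 and 6 for transcription and 1 and 5 for the biogenesis regulators. With the length trend removed 159 rose and 47 fell, where 38.3% of all genes were higher and 33.7% lower. In the same libraries the 13 mitochondrial mRNAs had a median of -0.17 under TMM, -0.54 by library size alone and -0.52 with the length trend removed.

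**Figure D5:**
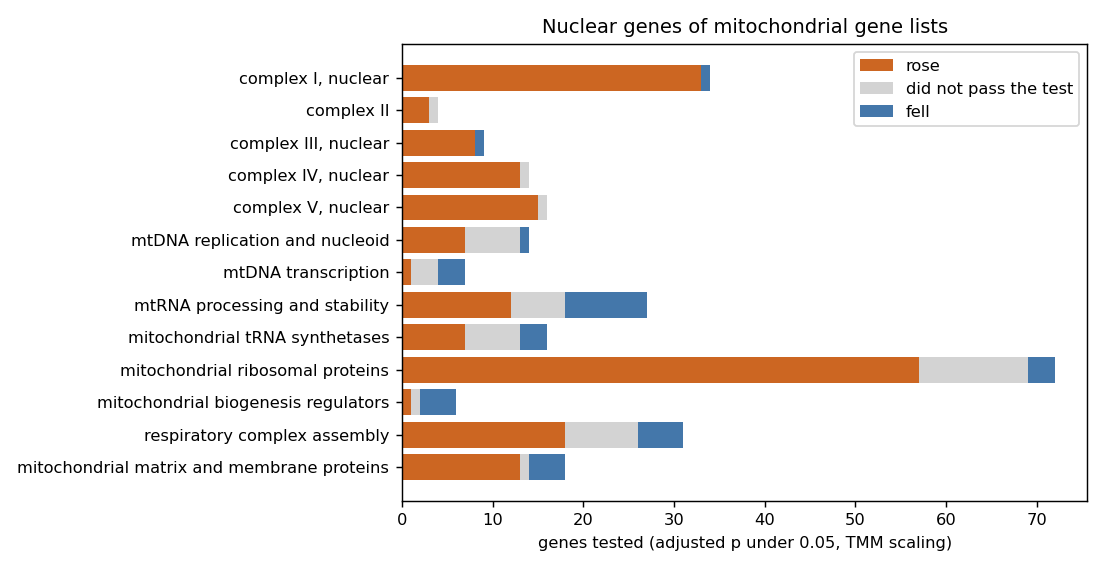
Number of tested genes (x axis) that rose, did not pass the test or fell at an adjusted p under 0.05 from edgeR under TMM scaling, for each of 13 lists of nuclear genes (y axis). Most genes rose in the lists of complexes I to V and of ribosomal proteins (57 of 72), while 4 of 6 biogenesis regulators fell. Of all genes tested, 36.9% were higher and 38.8% lower. By library size alone 129 genes over all lists rose and 71 fell, where 22.0% of all genes were higher and 55.4% lower.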

How the data were processed

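RNA-seq was performed on 3 libraries of BMSCs-OE-NC and 3 of BMSCs-OE-FNDC5, grouped by the labels. The gene counts deposited by the authors are whole numbers, and the deposited FPKM values equal the count divided by gene length and by 1 constant per library. The submitters' processing notes name HTSeq 0.6.0 without a strand setting, the aligners HISAT2 2.1.0, Bowtie2 2.2.3 and TopHat2, CASAVA and DESeq2, and the mouse build mm10, and the labels mention retinas in the extraction, although the source given is bone marrow and 32883 of 33508 identifiers are rat Ensembl genes. Positions are the table's own, and no rat build is named there. Reads shared between near-identical places, nuclear copies of mitochondrial DNA included, may have been split or dropped.

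Members are all genes with MT as chromosome. Members and lists were chosen with earlier results of these data known. Genes were filtered with filterByExpr (minimum count 10, minimum total 15), leaving 12104 of 16786 with a count, and compared with edgeR 4.0.16 (TMM, glmQLFit and glmQLFTest, condition only) in R 4.3.3, with Benjamini-Hochberg adjustment over all genes. A standard error is the absolute log2 fold change over the square root of F. CPM are TMM-scaled. Shares and ratios were compared by exact permutation tests (scipy 1.17.1, two-sided), which cannot go below p = 0.1 here. Named were every tested member, Fndc5, Polrmt, Tfam, Tfb2m, Lrpprc, Slirp and Ppargc1a, and in each nuclear list 2 genes, those of smallest p among members that moved in the list's main direction. Chi-square per degree of freedom between libraries was 3.82 to 7.97 within groups and 171 to 179 between them, so no library repeated another. The procedure was tested on simulated counts with few genes changed, as many up as down, and no length trend. That test cannot speak to the calls that depend on the scaling.

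Alternatives were DESeq2 1.42.0, limma-voom and limma-trend on log2(FPKM + 1) and log2(FPKM + 0.1) (limma 3.58.1), size factors of DESeq2 in edgeR, upper-quartile scaling, library size alone, TMM without chromosome MT genes, scaling to the mitochondrial total, no filter, at least 10 counts in every library, a lowess offset for gene length (span 0.3), a replicate block and leaving out each library. Plots used matplotlib 3.10.9 in Python 3.11.15. Reads were not reprocessed, and sequences of these genes were not used here.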

Additional observations from a re-analysis of the deposited data

How the results depend on the processing

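With each library left out in turn, 8 to 9 members rose, 7 fell, 4 to 6 were higher and 1 was lower past both thresholds, and the difference in mitochondrial share was -0.370 to -0.332 percentage points. The count of members that fell was 11 by library size alone and 11 with the length trend removed, and 9 with upper-quartile scaling, where ND2 at -0.13 and COX3 at -0.11 passed as lower and COX1 did not pass. Members lower past both thresholds numbered 4 by library size alone and 4 with the length trend removed. Members higher past both thresholds numbered 3 with upper-quartile scaling and 1 by library size alone, where 71 genes of the nuclear lists fell. COX1 reversed to -0.22 by library size alone and -0.064 with the length trend removed, and ATP6 to -0.12 and -0.29. Values near 0 changed sign for ND2, at 0.0031 with DESeq2 and with its size factors in edgeR, and for COX3, at 0.029 with both, at 0.024 on each FPKM scale and at -0.039 to 0.028 with a library left out. List medians reversed by library size alone to -0.076 for replication and nucleoid, -0.23 for RNA processing, -0.23 for tRNA synthetases and -0.030 for matrix and membrane proteins. Library size alone moves the median of all genes by -0.37, and the cause of the other changes was not tested.

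The ratios within a library kept their direction in summed FPKM (1.18 for ribosomal RNA, 1.45 for transfer RNA and -0.70 for ND6) and with every library left out. Without AY172581.18, an alternative chosen after seeing the data, the transfer RNA ratio differed by 1.07. Replicate numbers did not pair the libraries, with correlations of same-numbered libraries of 0.02, -0.01 and -0.01, and the replicate block gave the same counts, 8 that rose and 7 that fell. Counts limit the transfer RNAs, 19 of which could not be tested, and ATP8.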

Other observations

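Some nuclear loci are described in the gene table as resembling a mitochondrial protein, and were looked at after the values had been seen. A locus on chromosome 20 (19484513 to 19485844), described as resembling subunit 4 of NADH dehydrogenase, had 60, 201 and 711 counts in the NC libraries and 26, 24 and 18 in the FNDC5 libraries. Among the NC libraries its count was highest where that of ND4 was lowest, at 711 against 866. Added together, ND4 and this locus had 1342, 1316 and 1577 counts and then 508, 507 and 543 counts, which is 70.3 ± 8.02 and 34.7 ± 1.19 CPM (SD, n = 3), a log2 ratio of means of -1.02 in place of the fitted -0.70 for ND4 alone. Whether reads were shared between the loci was not tested. A locus on chromosome 5 described as resembling subunit 3 had 7 to 12 counts in the NC libraries and 11 to 14 in the FNDC5 libraries, against 3461 to 6376 for ND3, and a pair of overlapping loci on chromosome 8, described as resembling COX1, had at most 7 counts in a library.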
